A study of Mus musculus with 16 samples.

Results

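Transcripts of 9 hormone receptors were followed in cortical bone, and they were chosen by name as receptors through which circulating hormones are known to act on the skeleton: Pth1r, Vdr, Esr1, Thra, Thrb, Rara, Ghr, Insr and Lepr. These are 9 of the 36829 features listed for each mouse. RNA came from the femoral cortex, flushed of marrow, of 11-week-old female C57Bl/6 mice. The 8 HLU mice had their hindlimbs unloaded for 7 days, which takes body weight off the hind legs while the animal moves on its forelimbs, and the 8 control mice bore weight normally. Each mouse gave its own RNAseq library. The comparison asked whether the transcript abundance of a receptor differed between unloaded and weightbearing bone, and the spread between mice was used to ask which receptors varied together.

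Bone is remodelled by osteoblasts, which form it, by osteoclasts, which resorb it, and by osteocytes embedded in it, and hormones set the pace of all of these cells. Parathyroid hormone, growth hormone, insulin and leptin bind receptors at the cell surface. Vitamin D, estrogen, thyroid hormone and retinoic acid bind nuclear receptors, which are transcription factors that the hormone switches on or off.

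Abundance was given as RPKM, reads scaled for the length of the gene and for the size of its library. The number of reads that divided a library's values was recovered from the steps between low values, and it ranged from 7067512 to 19708590 in control mice and from 7838277 to 21363584 in HLU mice (exact permutation p = 0.502, n = 8 each). All 9 receptors passed the minimum mean of 0.5 RPKM over the 16 mice. The lowest number of reads behind any receptor value was 28, for Rara in Control 2, whose library had the lowest divisor. For Rara, 3 reads were worth between 0.0211 and 0.0639 RPKM, so its lowest value, 0.322 RPKM in HLU 4, stood above that limit. The corresponding limit for Thrb was 0.00969 to 0.0293 RPKM, and its lowest value was 0.394 RPKM. Each value stands for all transcripts of a gene together, so that forms of a receptor, such as the long and short forms of Lepr, are not separated.

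The tissue carried the transcripts that define bone cells. Ibsp, a matrix protein of osteoblasts, was at 523 ± 190 RPKM in control and 588 ± 141 in HLU mice, and Mepe, of osteocytes, was at 140 ± 75.1 and 226 ± 78.5 (SD, 8 mice a group). Ctsk, the collagen-degrading protease of osteoclasts, was at 676 ± 215 and 815 ± 272 RPKM. Blood cells were present too. S100a8, of neutrophils, reached 11620 ± 3414 RPKM in control and 10226 ± 4357 in HLU mice, and the erythroid globin Hbb-b2 reached 1388 ± 658 and 856 ± 376. In such bulk RNA, fewer cells of a type and less RNA per cell cannot be told apart.

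In control mice the receptors covered a wide range of levels per length. Vdr was the most abundant, at 18.3 ± 6.75 RPKM, followed by Lepr at 13.7 ± 3.27, Pth1r at 11.2 ± 6.19 and Insr at 10.7 ± 1.59 (SD, 8 mice a group). Ghr and Thra came next, at 6.84 ± 1.50 and 6.81 ± 2.63 RPKM. Esr1 at 1.40 ± 0.334, Rara at 1.11 ± 0.539 and Thrb at 0.705 ± 0.207 RPKM were the lowest. Compared within mice, only 2 of the 8 steps between neighbours in this order exceeded the spread. Insr was above Ghr in 8 of 8 control mice, by 0.66 on the log2 scale, and Thra was above Esr1 in 8 of 8, by 2.14 (exact permutation p = 0.0078 each, the smallest that 256 sign changes can give, adjusted p = 0.0312 over the 8 steps). The other 6 steps had adjusted p-values from 0.312 to 0.789, so neighbours among Vdr, Lepr, Pth1r and Insr, Ghr and Thra, and neighbours among Esr1, Rara and Thrb were not resolved. Apart from Thra and Thrb, whose ratio is given below, receptors that are not neighbours in the order were not compared. The step from Insr to Ghr depends on the gene lengths implied by the RPKM values, and with exon lengths of GENCODE M21 it was -0.099, reversed. That from Thra to Esr1 hardly moved, at 2.13 in 8 of 8 mice with the same exact permutation p, and its adjusted p rose to 0.0625 because the other step no longer had a low p. Among all tested features, Vdr stood at the percentile 83.5 of mean abundance and Thrb at 11.2.

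Promoters are shown for 4 receptors that varied closely with another receptor between mice: Pth1r and Rara, which rose and fell together, and Thrb and Ghr, which formed the closest pair. Each is the window of 250 bases before to 50 after the start that lies farthest upstream for the gene in RefSeq (GRCm38.p6), written 5′ to 3′ along the gene's strand. Capitals mark 3 motifs searched on both strands: the GC box GGGCGG, the nuclear receptor core motif AGGTCA and the TATA box TATAAA. None of these overlapped a different one of them in the receptor windows.
Pth1r, chr9:110747096-110747395, - strand: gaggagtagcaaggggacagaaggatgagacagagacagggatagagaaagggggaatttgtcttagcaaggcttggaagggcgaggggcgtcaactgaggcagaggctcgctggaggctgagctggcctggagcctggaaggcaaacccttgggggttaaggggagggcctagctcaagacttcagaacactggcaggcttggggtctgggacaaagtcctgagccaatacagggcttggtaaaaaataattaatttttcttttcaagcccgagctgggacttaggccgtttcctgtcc
Rara, chr11:98937446-98937745, + strand: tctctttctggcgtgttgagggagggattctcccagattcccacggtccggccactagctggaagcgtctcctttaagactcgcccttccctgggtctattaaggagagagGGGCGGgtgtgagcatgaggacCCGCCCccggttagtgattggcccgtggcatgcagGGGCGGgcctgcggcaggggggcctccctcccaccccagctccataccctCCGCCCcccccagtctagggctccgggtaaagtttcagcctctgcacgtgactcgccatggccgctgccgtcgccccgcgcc
Thrb, chr14:17660710-17661009, + strand: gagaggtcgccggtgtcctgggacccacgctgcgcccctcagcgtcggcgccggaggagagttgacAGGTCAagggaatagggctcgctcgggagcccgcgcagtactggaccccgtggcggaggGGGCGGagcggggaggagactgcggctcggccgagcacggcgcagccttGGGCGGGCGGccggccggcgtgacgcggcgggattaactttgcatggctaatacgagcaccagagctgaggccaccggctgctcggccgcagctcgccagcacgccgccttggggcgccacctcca
Ghr, chr15:3583303-3583602, - strand: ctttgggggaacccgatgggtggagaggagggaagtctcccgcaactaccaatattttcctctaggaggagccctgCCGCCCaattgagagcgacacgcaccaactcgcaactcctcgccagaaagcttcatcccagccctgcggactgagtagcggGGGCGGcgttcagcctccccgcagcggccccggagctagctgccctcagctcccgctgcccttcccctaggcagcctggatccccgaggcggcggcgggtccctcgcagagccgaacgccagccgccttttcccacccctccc

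RefSeq windows were matched for 7 of the 9 receptors, 16 windows in all, and none was matched for Thra and Insr. A GC box was present in 9 of the 16, belonging to 6 receptors, beside 35.7% of all 32851 mouse windows of this length. The window shown for Rara held 4, that for Thrb 3 and that for Ghr 2. The Rara window shown shares most of its bases with the next one downstream, which also held 4, and both are counted. The most upstream Pth1r window held none, while the other starts of Pth1r held 1 and 4. The core motif AGGTCA occurred in 2 of the 16 windows, the Thrb window shown and the most downstream of the 4 Rara windows, beside 16.3% of all windows. TATAAA occurred in 2, at the downstream starts of Thrb and Ghr, beside 13.6%. The 16 windows had from 4 to 37 CG steps, the ends of that range both in Thrb, against a median of 7 over all windows. A match of letters is a description of the window and says nothing of the use of that start in bone.

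Over all 16973 features tested, 188 were higher in HLU mice and 808 were lower with a limma p below 0.05 before adjustment and a shift of 1.2-fold or more, or 1.11% and 4.76%. Of the 9 receptors, 0 were called higher and 0 lower, and 0 had an unadjusted p under 0.05 even without the fold criterion. At an adjusted p under 0.1, limma called 0 of all features and 0 receptors, against 1049 features at an unadjusted p under 0.05. On whole reads recovered from the RPKM values, limma voom also called 0 at the adjusted threshold, with 1136 at an unadjusted p under 0.05. The share of higher calls depended on how libraries were scaled, 18.9% as deposited, 49.1% after median-of-ratios rescaling and 55.8% after quantile normalization. The median log2 fold change of all features was -0.10, against -0.01 and 0.00 after these rescalings. Among the receptors 4 had a positive log2 fold change and 5 a negative, with a median of -0.03.

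**Figure D1:**
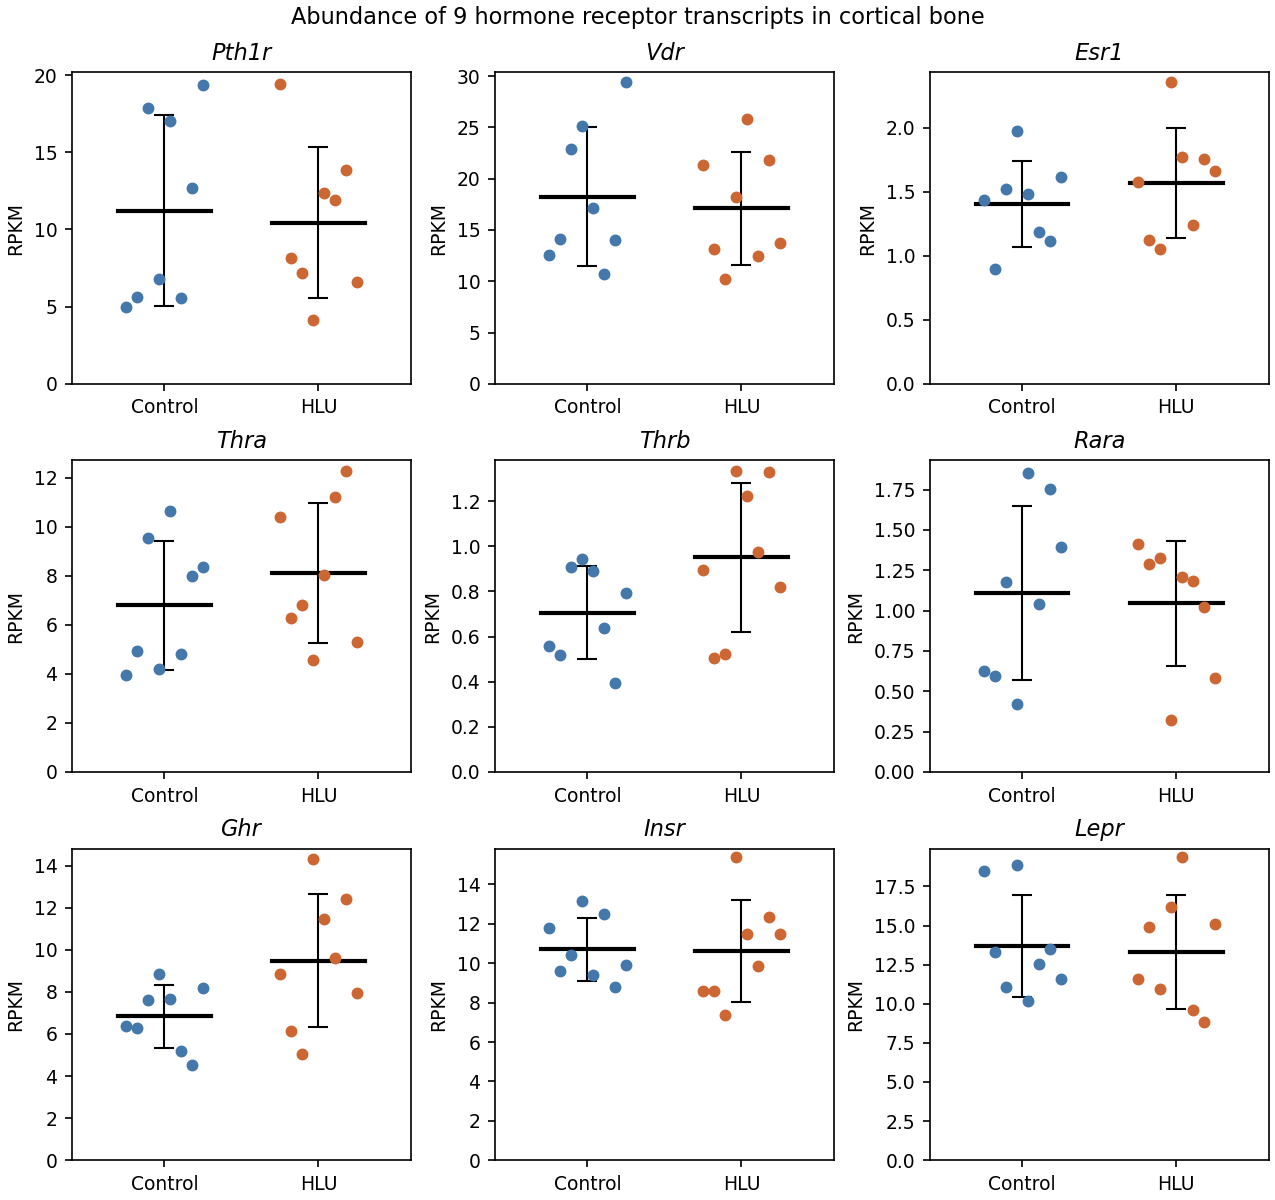
RPKM of each receptor (vertical axes, from 0) in the 8 control and 8 HLU mice, with a point for each mouse, a bar at the mean and whiskers of 1 SD. The groups overlap for every receptor, and the highest 4 HLU mice lie above all control mice for Ghr (up to 14.3 RPKM) and Thrb (up to 1.33 RPKM).

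Pth1r, the receptor for parathyroid hormone and its related peptide on osteoblasts and osteocytes, lay between 4.96 and 19.3 RPKM in control mice (median 9.73) and between 4.15 and 19.4 in HLU mice (median 10). The groups overlapped over nearly all of this range. Control mice fell into a low set, Control 1, 2, 4 and 6, at no more than 6.78 RPKM, and a high set, Control 3, 5, 7 and 8, at 12.7 RPKM or more, whereas in HLU mice the corresponding gap, from 8.12 to 11.9 RPKM, was narrower. The log2 fold change of HLU over control was -0.04 (SE 0.36, 95% confidence interval -0.80 to 0.72), with an exact permutation p of 0.914 and a limma adjusted p of 0.978 (n = 8 each). The spread between mice was wide, 55.1% of the mean in control mice and 46.9% in HLU mice, so the interval ran from a 0.576-fold to a 1.64-fold level. Its small negative value became 0.05 after median-of-ratios rescaling, 0.07 after quantile normalization, and 0.343 and 0.190 with the erythroid and neutrophil and the erythroid and osteoblast scores as covariates.

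Vdr, the nuclear receptor for the active form of vitamin D, lay between 10.7 and 29.4 RPKM in control mice (median 15.6) and between 10.2 and 25.8 in HLU mice (median 15.98). Control 8 was highest and HLU 3 lowest, and the groups overlapped throughout. Vdr had a log2 fold change of -0.08 (SE 0.23, exact permutation p = 0.751, limma adjusted p = 0.936, n = 8 each), and it was 0.01 after median-of-ratios rescaling. Adding covariates gave -0.220 (erythroid and neutrophil scores) and -0.239 (erythroid and osteoblast scores), neither called. Esr1, estrogen receptor alpha, ranged from 0.895 to 1.98 RPKM in control mice (median 1.46) and from 1.05 to 2.36 in HLU mice (median 1.62). A single HLU mouse, HLU 4, was above all control mice. The log2 fold change of Esr1 was 0.14 (SE 0.18, exact permutation p = 0.430, limma adjusted p = 0.849, n = 8 each). It was -0.04 with the erythroid and neutrophil scores as covariates.

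The genes for thyroid hormone receptors alpha and beta, Thra and Thrb, differed in level. Thra lay between 3.97 and 10.6 RPKM in control mice (median 6.47) and between 4.58 and 12.3 in HLU mice (median 7.44). The 2 highest values belonged to HLU 7 and HLU 6, and the remaining HLU mice lay within the control range. The log2 fold change of Thra was 0.27 (SE 0.25, exact permutation p = 0.330, limma adjusted p = 0.783, n = 8 each). With the erythroid and neutrophil scores as covariates it rose to 0.56 and passed the unadjusted call, at a limma adjusted p of 0.181, in a fit that called 17.4% of all features. It was 0.393 with the erythroid and osteoblast scores, not called.

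Thrb lay between 0.394 and 0.944 RPKM in control mice (median 0.715) and between 0.504 and 1.33 in HLU mice (median 0.934). HLU 4, 5, 6 and 7 were above every control mouse, and HLU 2 and 3 were near the bottom of the control range. Its log2 fold change of 0.36 (SE 0.24, 95% confidence interval -0.15 to 0.86) did not exceed the spread between mice (exact permutation p = 0.133, limma adjusted p = 0.750, n = 8 each). It fell to 0.127 with the erythroid and neutrophil scores as covariates and to 0.045 with the erythroid and osteoblast scores. Within mice, Thra exceeded Thrb by 3.05 ± 0.597 on the log2 scale in control mice and by 2.96 ± 0.623 in the HLU group (SD of 8 mice), a ratio of 8.30-fold and 7.78-fold. With GENCODE M21 exon lengths in place of those implied by the RPKM values it was 6.18-fold and 5.72-fold. This ratio did not differ between the groups beyond its spread (exact permutation p = 0.769, adjusted p = 0.769 over 3 ratios). In the GENCODE M21 annotation of GRCm38, the end of Thra overlaps Nr1d1, a clock gene on the opposite strand. Since the library kit does not mark strand, reads in the overlap cannot be assigned to either gene. Nr1d1 was at 7.44 ± 5.41 RPKM in control and 9.93 ± 7.50 in HLU mice, and it varied with Thra between mice within groups (Pearson r = 0.90, permutation p = 5.0e-05; Spearman rho = 0.87, permutation p = 1.3e-04; 16 mice), with r = 0.86 without the 2 mice at the greatest distance from the median of Thra.

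Rara, retinoic acid receptor alpha, lay between 0.422 and 1.85 RPKM in control mice (median 1.11) and between 0.322 and 1.41 in HLU mice (median 1.196). HLU 4 was the lowest of all mice, and no HLU mouse exceeded the highest control value, that of Control 5. Its log2 fold change was -0.04 (SE 0.33, exact permutation p = 0.905, limma adjusted p = 0.976, n = 8 each), and 0.04 after median-of-ratios rescaling. It turned to 0.505 with the erythroid and neutrophil scores as covariates and to 0.407 with the erythroid and osteoblast scores, neither called. Rarg, the gamma receptor, had the higher RPKM of the pair, at 3.63 ± 1.31 RPKM in control and 3.79 ± 1.29 in HLU mice (SD of 8 mice). The log2 ratio of Rara to Rarg was -1.68 ± 0.383 and -1.80 ± 0.375, and it did not differ beyond its spread (exact permutation p = 0.537, adjusted p = 0.769). This ratio and that of Insr to Igf1r were not computed with GENCODE M21 exon lengths.

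Ghr, the growth hormone receptor, had the lowest p of the 9. It lay between 4.54 and 8.84 RPKM in control mice (median 6.99) and between 5.03 and 14.3 in HLU mice (median 9.21). HLU 4, 5, 6 and 7 were above every control mouse, while HLU 2 and HLU 3 were at the lower end of the control range. The mean was 6.84 ± 1.50 RPKM in control and 9.47 ± 3.16 in HLU mice (SD of 8 mice). The log2 fold change was 0.42 (SE 0.21, 95% confidence interval -0.01 to 0.86), 0.52 above the median of all features, with an exact permutation p of 0.0696 and a limma adjusted p of 0.744. It did not pass the unadjusted call as deposited, and 6.99% of all features had a lower p. It passed that call after median-of-ratios rescaling at 0.51, after quantile normalization at 0.54 and with limma voom at 0.42, with limma adjusted p-values of 0.903, 0.897 and 0.702. It also passed without Control 4 at 0.48, without Control 8 at 0.46, without HLU 2 at 0.50 and without HLU 3 at 0.54. With the erythroid and neutrophil scores as covariates the log2 fold change was 0.15, and with the erythroid and osteoblast scores it was 0.09.

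Insr, the insulin receptor, varied least between mice. It lay between 8.82 and 13.2 RPKM in control mice (median 10.2) and between 7.36 and 15.4 in HLU mice (median 10.7). HLU 4 was above and HLU 1, 2 and 3 were below every control mouse, so HLU mice were on both sides of the control range. Insr had a log2 fold change of -0.03 (SE 0.14, 95% confidence interval -0.33 to 0.27, exact permutation p = 0.835, limma adjusted p = 0.959, n = 8 each), and it was 0.06 after median-of-ratios rescaling. Covariate fits moved it to -0.220 (erythroid and neutrophil scores) and -0.241 (erythroid and osteoblast scores), neither called. Igf1r, the receptor for insulin-like growth factor 1, was at 3.04 ± 0.408 RPKM in control and 2.87 ± 1.06 in HLU mice. The log2 ratio of Insr to Igf1r was 1.78 ± 0.285 in control mice and 1.89 ± 0.774 in the HLU group (SD of 8 mice, exact permutation p = 0.710, adjusted p = 0.769).

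Lepr, the leptin receptor, which also marks stromal cells of the marrow, lay between 10.2 and 18.9 RPKM in control mice (median 12.9) and between 8.83 and 19.4 in HLU mice (median 13.2). HLU 5 was highest, HLU 6 and HLU 7 were below every control mouse, and the rest overlapped. For Lepr the log2 fold change was -0.05 (SE 0.18, 95% confidence interval -0.43 to 0.32, exact permutation p = 0.764, limma adjusted p = 0.941, n = 8 each), and it was 0.04 after median-of-ratios rescaling. The same covariates gave -0.242 and -0.125, neither called.

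**Figure D2:**
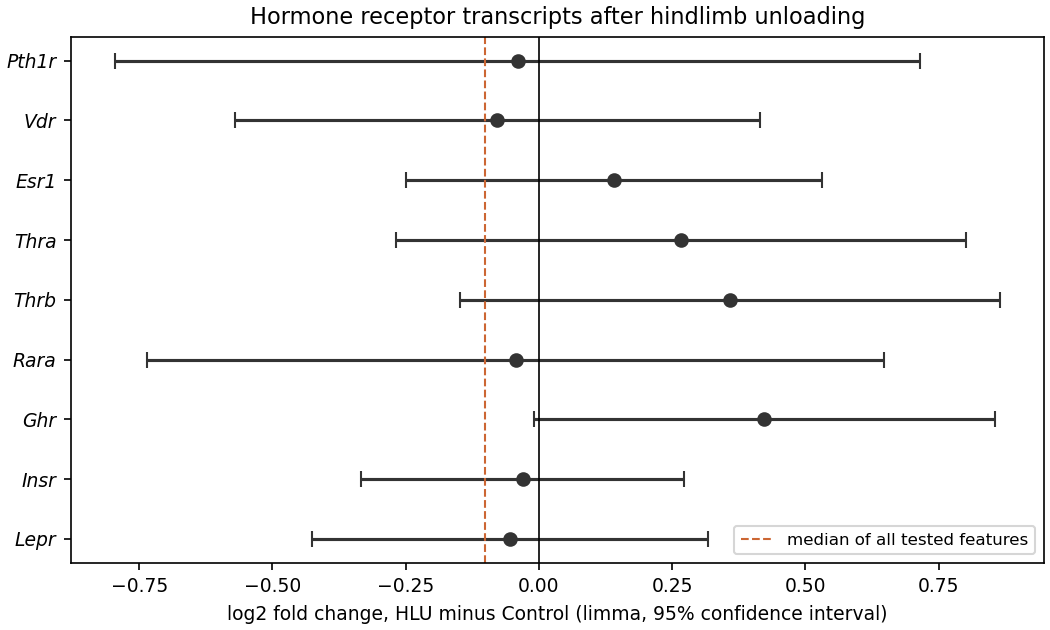
Log2 fold change of each receptor, HLU minus control (horizontal axis), from limma on log2(RPKM + 0.1), with points at the estimate and whiskers over the 95% confidence interval (8 mice in each group). All 9 intervals include 0, and that of Ghr, -0.01 to 0.86, only narrowly; the dashed line is the median of all tested features, -0.10.

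Genes that make, carry, transduce or respond to some of these hormones were grouped in 7 lists, in which 85 different genes passed the filter. Of these 2 were higher and 3 lower at the unadjusted call, together 5.88% against 5.87% of all features, and 0 passed the adjusted call. Their median log2 fold change was -0.06, beside -0.10 for all features.

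In the list for the parathyroid hormone receptor and cAMP signalling, 2 of 21 genes were higher, 0 lower, and the median log2 fold change was -0.12. Both higher genes, Pde4d and Pde4b, encode phosphodiesterases that break down cAMP, the messenger made when Pth1r is active. Pde4d lay between 13.6 and 26.7 RPKM in control mice (median 16.8) and between 12.53 and 52.4 in HLU mice (median 27.6). HLU 1, 4, 6, 7 and 8 were above every control mouse, and HLU 2 was below them all. Its log2 fold change was 0.63 (SE 0.24, exact permutation p = 0.0263, limma adjusted p = 0.744, n = 8 each), and 0.72 after median-of-ratios rescaling. Covariate fits gave 0.464 with the erythroid and neutrophil scores, still called, and 0.314 with the erythroid and osteoblast scores, not called. Pde4b lay between 1.64 and 2.87 RPKM in control mice, against 1.93 to 4.24 in HLU mice, with 5 HLU mice above every control mouse. Its log2 fold change was 0.39 (SE 0.18, exact permutation p = 0.0521, limma adjusted p = 0.744, n = 8 each), and its p lay close to the threshold. The unadjusted call was lost, at an unchanged value, without the filter, with a minimum mean of 2 RPKM and with the replicate block, at 0.341 without the 2 smallest libraries, and in the covariate fits at 0.272 (erythroid and neutrophil scores) and 0.160 (erythroid and osteoblast scores).

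Among genes for thyroid hormone transport, deiodination and response, 0 of 10 were higher and 2 lower, with a median of 0.05. Both lower genes encode membrane transporters: Slc16a10 carries aromatic amino acids and thyroid hormone, and Slc7a5 carries large neutral amino acids and thyroid hormone. Slc16a10 lay between 19.8 and 33.7 RPKM in control mice, against 11.2 to 28.3 in HLU mice, with 5 HLU mice below every control mouse (log2 fold change -0.43, SE 0.20, exact permutation p = 0.0532, limma adjusted p = 0.744, n = 8 each). Slc7a5 lay between 9.39 and 21.2 RPKM in control mice, against 5.25 to 15.5 in HLU mice, with 3 HLU mice below every control mouse (log2 fold change -0.50, SE 0.22, exact permutation p = 0.0480, limma adjusted p = 0.744, n = 8 each). After median-of-ratios rescaling neither passed the call, at -0.34 and -0.41. Slc16a10 also lost the call with the replicate block, at an unchanged value. Without the 2 smallest libraries both lost it, at -0.429 and -0.523. Slc16a10 shrank to -0.242 and Slc7a5 to -0.135 with the erythroid and neutrophil scores as covariates, and to -0.153 and -0.113 with the erythroid and osteoblast scores, none called. At -0.242 Slc16a10 had an unadjusted limma p of 0.0320 and missed only the fold criterion, in a fit that called 17.4% of all features.

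The insulin list held a single called gene among 20, lower in HLU mice, and its median log2 fold change was -0.05. Foxo3, a transcription factor that insulin signalling restrains, lay between 15.5 and 24.1 RPKM in control mice (median 19.2) and between 10.9 and 20.2 in HLU mice (median 15.01). In 4 HLU mice it was below every control mouse. It had a log2 fold change of -0.40 (SE 0.15, exact permutation p = 0.0182, limma adjusted p = 0.744, n = 8 each), and it kept the call after median-of-ratios rescaling, at -0.31. Its value was -0.263 with the erythroid and neutrophil scores as covariates and -0.225 with the erythroid and osteoblast scores, and both fits lost the call. At -0.263 Foxo3 had an unadjusted limma p of 0.0467 and narrowly missed only the fold criterion, in a fit that called 17.4% of all features.

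No gene was called in the lists for vitamin D metabolism and partners (6 genes, median -0.11), estrogen receptor partners and enzymes (10 genes, -0.06), retinoic acid synthesis, binding and breakdown (11 genes, 0.14) and leptin signalling (8 genes, -0.12). In the retinoic acid list 9 of 11 genes had a positive log2 fold change, and in the leptin list 8 of 8 had a negative value, beside 67.9% negative among all features. After median-of-ratios rescaling 11 of 11 were positive and 6 of 8 negative, beside 52.5% negative. When each mouse was left out in turn, the call was lost in 11 of 16 fits for Pde4b, 10 for Slc16a10, 5 for Slc7a5, and 0 for Pde4d and Foxo3. With the erythroid and osteoblast scores as covariates 3 of the 85 genes were called, 3.53% beside 3.95% of all features, and none of the 5 named above was among them. The erythroid and neutrophil scores as covariates gave 16 called, 18.8% beside 17.4% of all features, and of the 5 named only Pde4d was among them.

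**Figure D3:**
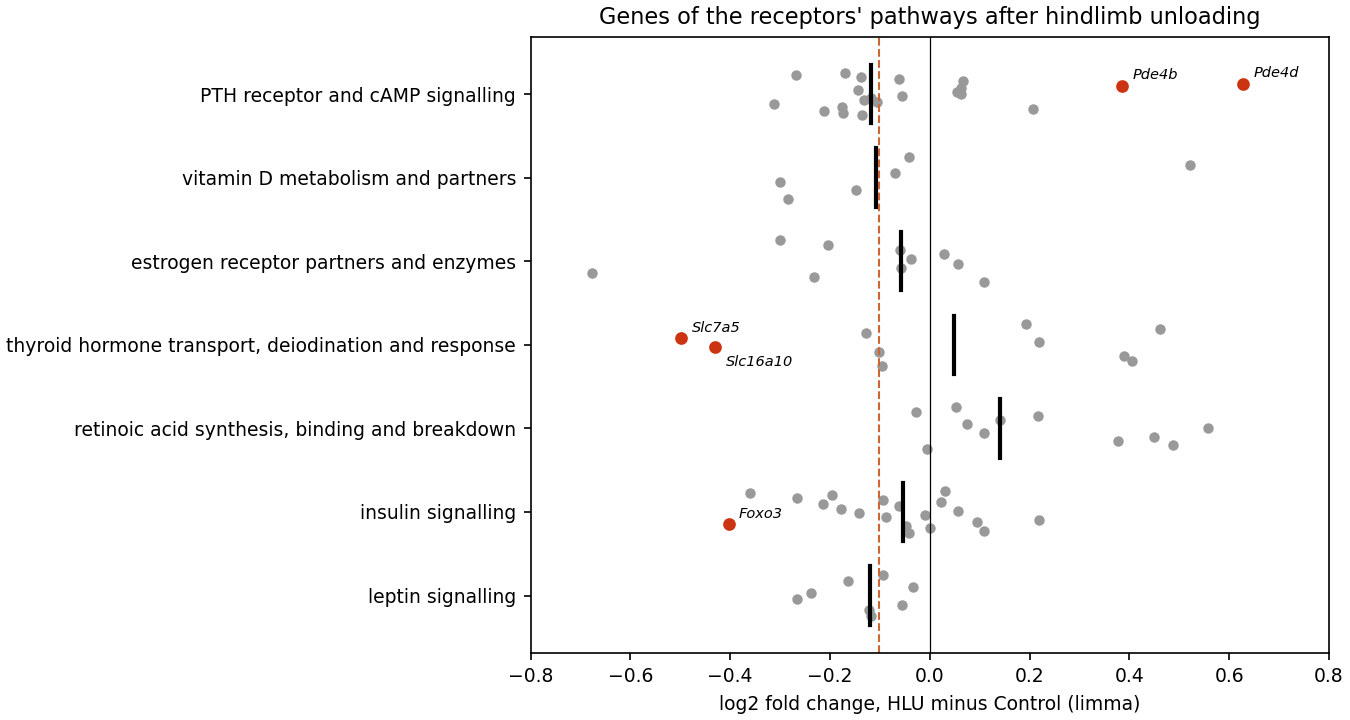
Log2 fold change, HLU minus control (horizontal axis), of each gene that passed the filter in the 7 pathway lists (rows), with red points for the 5 genes called at an unadjusted p under 0.05 and at least 1.2-fold. Black bars are list medians, from -0.12 to 0.14, and the dashed line is the median of all tested features, -0.10.

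Between mice of the same group some of the receptors varied together. After group means were removed, 14 of the 36 receptor pairs passed an adjusted p of 0.05 over 16 mice, 12 with a positive Pearson r and 2 with a negative, and 14 pairs passed by Spearman rho. In the 8 control mice alone 0 pairs passed. The lowest absolute r of the 14 was 0.675. It was reached by 38.9% of the receptor pairs, beside 17.4% of all relations between a receptor and another tested feature. By receptor the latter share ran from 4.50% for Vdr to 31.2% for Thra, with 20.7% for Pth1r and 21.1% for Rara. The 12 positive pairs formed separate sets. The first joined Pth1r, Thra and Rara. The second joined Esr1, Thrb, Ghr and Insr in every combination, with Vdr tied to Esr1, Thrb and Ghr.

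In the first set, Pth1r and Thra had r = 0.93 (permutation p = 5.0e-05, adjusted p = 9.0e-04) and rho = 0.87 (permutation p = 7.0e-05). Without Control 1 and HLU 4, the mice farthest from the median of Pth1r, r was 0.90. As control mice fell into a low and a high set for Pth1r, the 8 HLU mice are also given alone, and r was 0.90 in them. Thra and Rara had r = 0.78 (permutation p = 7.5e-04, adjusted p = 0.0047) and rho = 0.70 (permutation p = 0.0050), with r = 0.79 without the 2 mice at the greatest distance from the median. Pth1r and Rara had r = 0.76 (permutation p = 0.0020, adjusted p = 0.0072) and rho = 0.75 (permutation p = 0.0026), with r = 0.66 without the 2 farthest. Control 5, 7 and 8 and HLU 1, 5 and 6 were above the median of the 16 mice in all 3 receptors, and HLU 4 was low in all of them.

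In the second set, Thrb and Ghr had r = 0.94 and rho = 0.95, both at the lowest permutation p that 100000 draws allow, 1e-05 (adjusted p = 3.6e-04). Without HLU 2 and HLU 3 r was 0.90, and it was 0.88 in control mice alone and 0.98 in HLU mice alone. HLU 4 and HLU 7 were highest in both transcripts and Control 7 lowest in both. Esr1 had r = 0.82 with Ghr (permutation p = 2.1e-04, adjusted p = 0.0025; rho = 0.84, permutation p = 2.4e-04) and r = 0.82 with Thrb (permutation p = 3.1e-04, adjusted p = 0.0028; rho = 0.85, permutation p = 1.0e-04). Leaving out the 2 mice farthest from the median of Esr1 gave r = 0.87 and 0.79. Insr had r = 0.74 with Esr1 (permutation p = 0.0020, adjusted p = 0.0072; rho = 0.69, permutation p = 0.0061), and r = 0.70 without the 2 farthest mice.

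Insr had r = 0.70 with Ghr (permutation p = 0.0070, adjusted p = 0.0194; rho = 0.64, permutation p = 0.0163) and r = 0.68 with Thrb (permutation p = 0.0084, adjusted p = 0.0217; rho = 0.69, permutation p = 0.0077). Leaving out HLU 3 and HLU 4, farthest from the median of Ghr, gave r = 0.45 (permutation p = 0.122). Leaving out HLU 2 and HLU 3, farthest from that of Thrb, gave 0.47 (permutation p = 0.0841). Both relations thus weakened without those mice, over fewer mice. In control mice alone the Insr pairs had r = 0.25 for Ghr, 0.36 for Thrb and 0.47 for Esr1. In HLU mice alone these were 0.88, 0.84 and 0.91, and the difference between the groups was not tested. Vdr had r = 0.76 with Ghr (permutation p = 9.0e-04, adjusted p = 0.0047; rho = 0.77, permutation p = 8.8e-04). With Thrb its r was 0.72 (permutation p = 0.0031, adjusted p = 0.0102; rho = 0.71, permutation p = 0.0029), and with Esr1 it was 0.71 (permutation p = 0.0037, adjusted p = 0.0111; rho = 0.77, permutation p = 0.0014). Without Control 8 and HLU 5 the 3 values for Vdr were 0.75, 0.72 and 0.72.

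The negative pairs linked the first set to other receptors. Thra and Lepr had r = -0.76 (permutation p = 0.0014, adjusted p = 0.0064; rho = -0.80, permutation p = 5.4e-04), and r = -0.68 without the 2 mice at the greatest distance from the median. Rara and Insr had r = -0.73 (permutation p = 9.1e-04, adjusted p = 0.0047; rho = -0.77, permutation p = 5.4e-04), and r = -0.52 without Control 4 and HLU 4 (permutation p = 0.0444). Thra and Thrb, receptors for the same hormone, were in different sets, with r = 0.24 (permutation p = 0.367, adjusted p = 0.472; rho = 0.17, permutation p = 0.543).

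**Figure D4:**
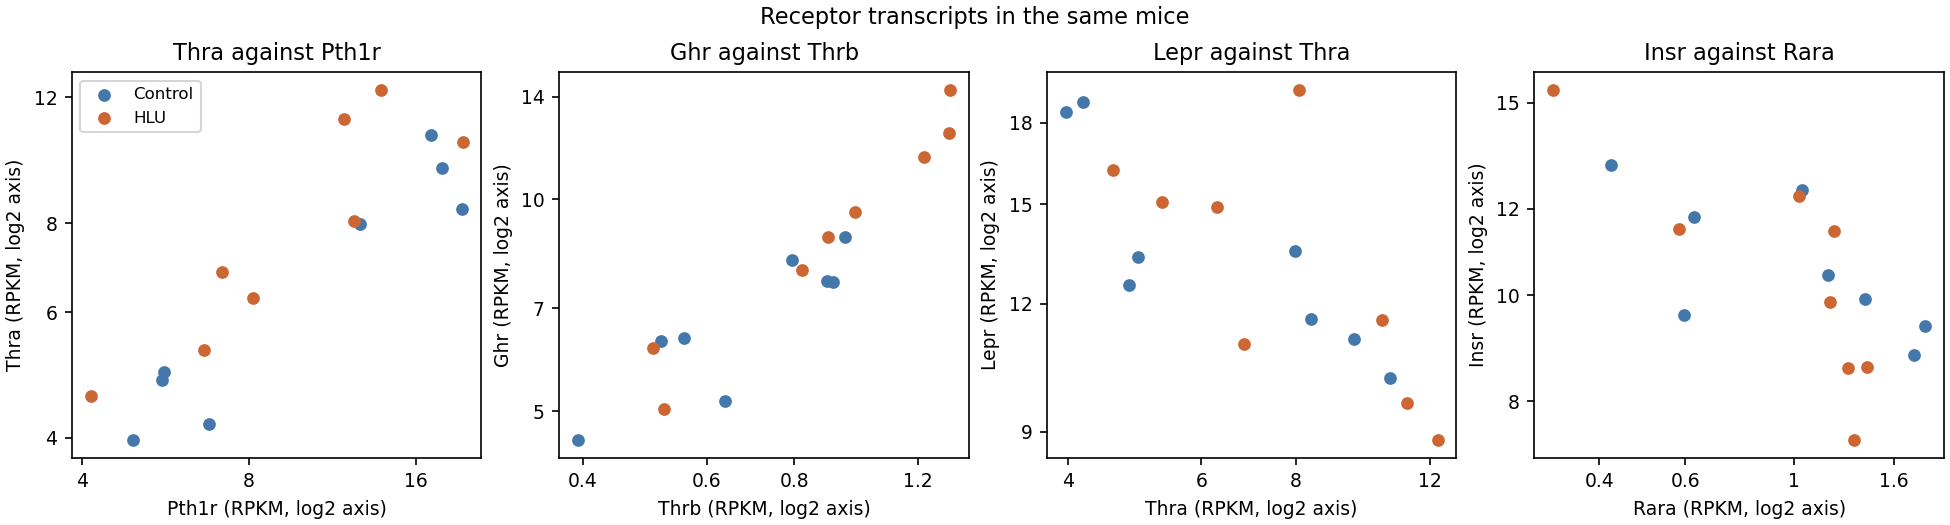
RPKM of 4 receptor pairs in the same mice (log2 axes), with a point for each control or HLU mouse. Thra rises with Pth1r and Ghr with Thrb (r = 0.93 and 0.94 within groups), while Lepr falls with Thra and Insr with Rara (r = -0.76 and -0.73).

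The receptors also moved with marker genes of cell types. A marker score averages log2(RPKM + 0.1) over the genes of a list, after the mean of each gene is taken off. Of 99 relations between 9 receptors and 11 scores, 22 passed an adjusted p of 0.05, 12 positive and 10 negative, against 29 after median-of-ratios rescaling. How many other tested features pass with these scores was not computed, so the count is not shown to be particular to the receptors. The part of the scores in the covariation of the receptors was tested only by removing 2 scores, as given below.

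Pth1r followed the cartilage score most closely, with r = 0.96 (permutation p = 1e-05, the smallest possible, adjusted p = 9.9e-04; rho = 0.91, permutation p = 1e-05) and r = 0.95 without the 2 farthest mice. This score rested on 3 of 6 markers, Acan, Col2a1 and Comp, with Col10a1, Sox9 and Matn1 under the filter, and the summed level of the list lay between 10.9 and 37.5 RPKM in control mice, against 8.09 to 34.4 in HLU mice. Col2a1, the most abundant, was at 12.2 ± 6.27 and 8.70 ± 6.48 RPKM (SD, 8 mice a group). Pth1r also followed the osteoblast score, with r = 0.86 (permutation p = 1.3e-04, adjusted p = 0.0033; rho = 0.90, permutation p = 3.0e-05). All 8 osteoblast markers were measured, with a sum between 819 and 1902 RPKM in control mice, against 967 to 2411 in HLU mice. Thra had r = 0.89 with cartilage (permutation p = 5.0e-05, adjusted p = 0.0025; rho = 0.84, permutation p = 2.6e-04), and Rara had r = 0.74 (permutation p = 0.0023, adjusted p = 0.0140; rho = 0.74, permutation p = 0.0033). Endothelium had r = 0.84 with Thra and 0.82 with Pth1r, and adipocytes 0.84 and 0.78 (adjusted p from 0.0033 to 0.0088, rho from 0.74 to 0.81). Pecam1, the most abundant endothelial marker, was at 22.3 ± 2.18 RPKM in control and 24.4 ± 3.41 in HLU mice, and Fabp4, of adipocytes, at 467 ± 98.0 and 587 ± 98.1.

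Receptors of the second set fell where some blood cell markers rose. Vdr passed with none of these scores as deposited (r = -0.58 with neutrophils and -0.49 with the erythroid score), but with both after median-of-ratios rescaling (adjusted p = 0.0183 and 0.0413), and the B lymphocyte score passed with no receptor (r from -0.45 to 0.56). Ghr had r = -0.83 with the erythroid score (permutation p = 2.2e-04, adjusted p = 0.0033; rho = -0.79, permutation p = 0.0011) and r = -0.76 without the 2 farthest mice. Thrb had r = -0.84 with the neutrophil score (permutation p = 1.6e-04, adjusted p = 0.0033; rho = -0.87, permutation p = 1.1e-04), and r = -0.70 without the 2 farthest. The erythroid score also passed with Thrb (r = -0.78), Insr (r = -0.69) and Esr1 (r = -0.68), the neutrophil score with Ghr (r = -0.78) and Esr1 (r = -0.66), and the macrophage score with Thrb (r = -0.77), Insr (r = -0.74) and Ghr (r = -0.67), at adjusted p-values from 0.0076 to 0.0473. Of these 8, the relations of Insr with both scores, of Ghr with macrophages and of Esr1 with neutrophils weakened without the 2 farthest mice. Their r then ran from -0.54 to -0.45 over fewer mice, with permutation p-values from 0.0645 to 0.130. By rho, Esr1 did not pass with the erythroid or the neutrophil score (adjusted p = 0.103 and 0.0662), nor Ghr with the macrophage score (adjusted p = 0.0916). All 10 erythroid markers were measured, and their sum lay between 3009 and 8643 RPKM in control mice, against 1658 to 4454 in HLU mice. For neutrophils 8 of 11 markers were analysed, with a sum between 17651 and 37909 RPKM in control mice, against 12431 to 44663 in HLU mice. The 7 macrophage markers, led by C1qb at 68.8 ± 23.1 and 63.4 ± 33.3 RPKM, summed to between 147 and 302 RPKM and between 105 and 322.

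Vdr and Thrb passed with scores of bone cells. Vdr had r = 0.75 with the osteoblast score (permutation p = 0.0019, adjusted p = 0.0127; rho = 0.69, permutation p = 0.0064) and r = 0.71 with the osteocyte score (permutation p = 0.0034, adjusted p = 0.0187; rho = 0.73, permutation p = 0.0034). Thrb had r = 0.76 with the osteocyte score (permutation p = 6.8e-04, adjusted p = 0.0067; rho = 0.79, permutation p = 3.8e-04). Without the 2 farthest mice these were 0.67, 0.66 and 0.73. Ghr and Esr1 passed with the osteocyte score by rho (adjusted p = 0.0206 and 0.0282) and after median-of-ratios rescaling, though not by r as deposited. The 6 osteocyte markers summed to between 179 and 589 RPKM in control mice, against 263 to 598 in HLU mice. Lepr passed with the marrow stroma score alone, with r = 0.81 (permutation p = 3.0e-04, adjusted p = 0.0033; rho = 0.80, permutation p = 3.0e-04) and r = 0.73 without the 2 farthest. Cxcl12, a chemokine of stromal cells and the most abundant of the 5 markers, was at 127 ± 29.5 RPKM in control and 129 ± 38.3 in HLU mice, and the list summed to between 95.2 and 194 RPKM and between 107 and 227.

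With the erythroid and osteoblast scores removed as well as the group means, 9 pairs of receptors passed, of which 8 were among the 14. Pth1r and Thra then had r = 0.96, Thrb and Ghr 0.80, Thra and Lepr -0.83, and Esr1 and Insr 0.82. Thra and Rara had 0.76, Pth1r and Rara 0.67, Vdr and Ghr 0.74, and Thrb and Insr 0.655. Pth1r and Lepr, not among the 14, had -0.755. Esr1 then had 0.55 with Thrb, 0.56 with Ghr and 0.49 with Vdr, Vdr and Thrb had 0.42, Ghr and Insr 0.58, and Rara and Insr -0.46. The part of the other marker lists in these relations was not tested.

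None of the 11 marker scores differed between the groups at an adjusted p under 0.05 by the exact permutation test. Of single markers, 3 of 10 erythroid markers were called lower and 1 osteocyte and 1 adipocyte marker higher, before adjustment. No marker of the other lists was called. Among all features 4.76% were called lower and 1.11% higher. The furthest apart were the erythroid score, lower in HLU mice by a difference of -0.59 (exact permutation p = 0.0692, adjusted p = 0.383), and the osteocyte score, higher by 0.47 (exact permutation p = 0.0696, adjusted p = 0.383, n = 8 each). After median-of-ratios rescaling the osteocyte difference was 0.56 (exact permutation p = 0.0370). The other 9 differences, for adipocytes (0.38), B lymphocytes (-0.37), macrophages (-0.20), cartilage (-0.15), neutrophils (-0.13), osteoblasts (-0.06), endothelium (0.06), marrow stroma (0.02) and osteoclasts (-0.01), had exact permutation p-values from 0.223 to 0.938. No marker was at 0 in every mouse. HLU 4 and HLU 7, the mice highest in Ghr and Thrb, had the lowest erythroid scores, -1.23 and -0.95, and Control 7, lowest in both receptors, had the highest, 1.32. Other mice departed from this order. HLU 1 had the next lowest score, -0.77, with both receptors inside the control range. HLU 6, above every control mouse in both, had -0.24. The part of blood cells in the Ghr and Thrb values of the groups was examined only by the covariate fits given above.

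**Figure D5:**
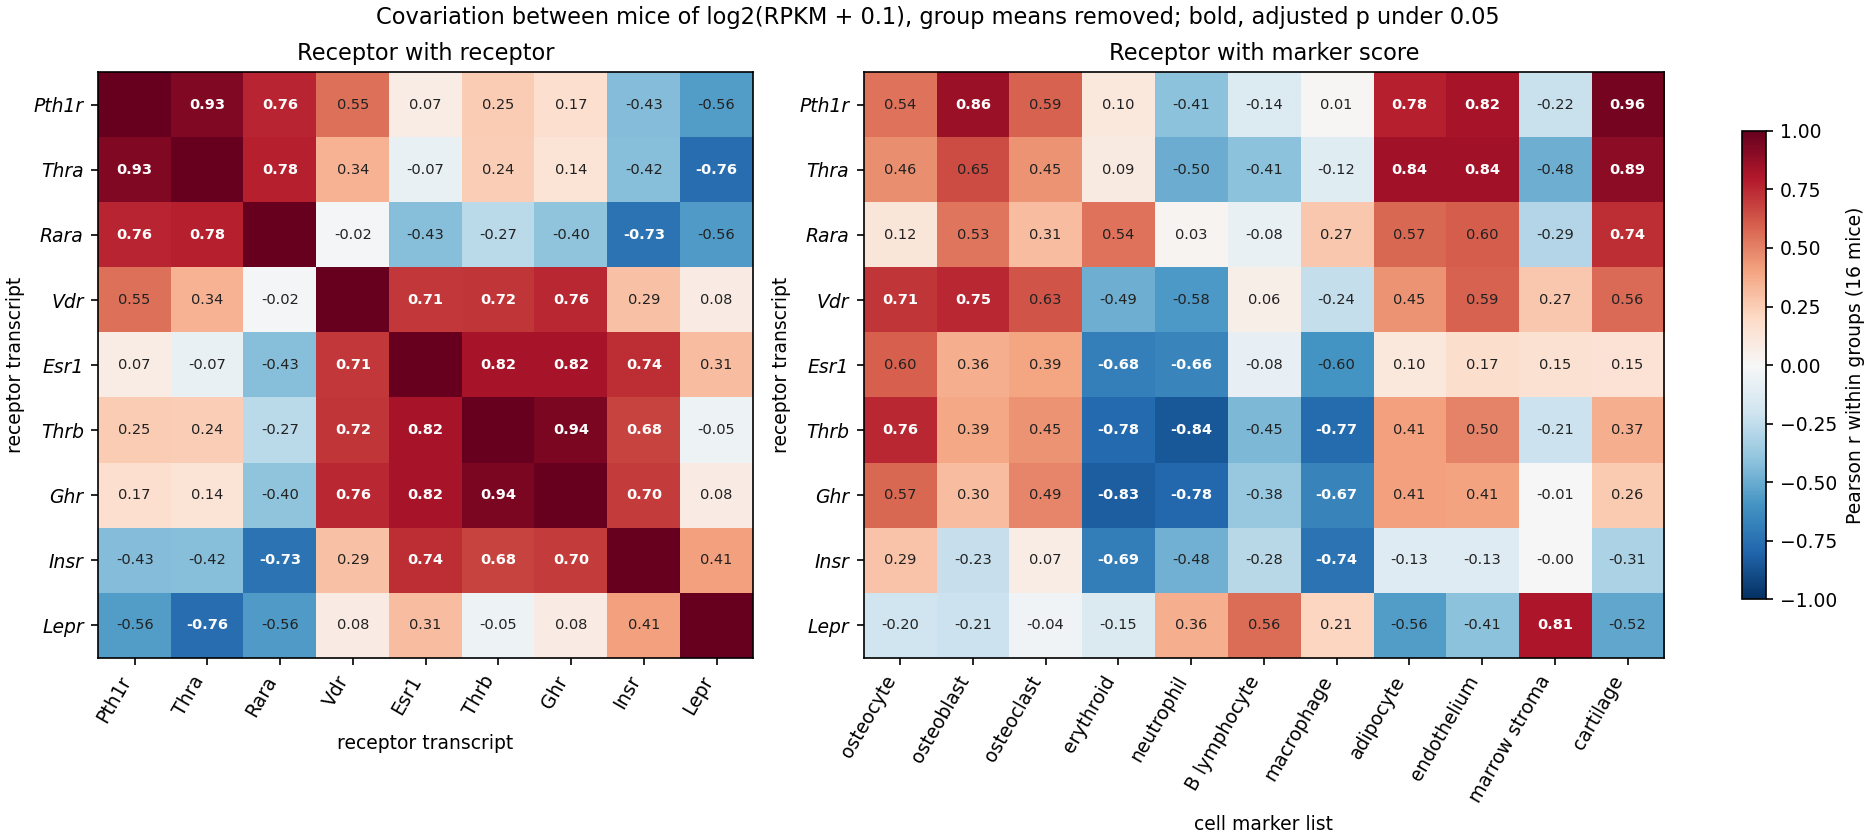
Pearson r within groups over 16 mice between receptors (left) and between receptors and marker scores of cell types (right), from -1 in blue to 1 in red, with bold figures at an adjusted p under 0.05. The 14 bold pairs on the left fall mainly into the set of Pth1r, Thra and Rara and the set of Vdr, Esr1, Thrb, Ghr and Insr.

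Other features followed single receptors more closely still, which is given as a description over 16 mice. The features most like Pth1r within groups were St6galnac6 (r = 0.98), Fkbp10 (r = 0.98) and Bmp1 (r = 0.97), and those most like Thra were Gpc1, Pnkd and Hspg2 (r = 0.99 each). Fkbp10, an endoplasmic reticulum protein of collagen folding, was at 9.76 RPKM in control and 9.39 in HLU mice, and Bmp1, the protease that trims procollagen, at 17.1 and 15.4. Rara was followed by Exosc5, Sbf1 and Usf1 (r = 0.97 each). Thrb was followed by Ulk2, Rnf150 and Mef2c (r = 0.97 each), and Ghr by Fam135a, Dcun1d4 and Slc7a2 (r from 0.95 to 0.96). Mef2c, a transcription factor of muscle and bone cells, was at 30.0 RPKM in control and 38.6 in HLU mice. Esr1 was followed by Ccdc50, Arhgap12 and Yes1 (r from 0.92 to 0.93), Vdr by Epb4.1l2, Lhfp and Fgfr2 (r from 0.93 to 0.97), Insr by Clasp2, Rdx and Naa50 (r from 0.95 to 0.97) and Lepr by Adnp, Dpm1 and Kdm3a (r from 0.96 to 0.97). The number of features with r above 0.9 was 430 for Thra, 414 for Rara, 140 for Pth1r and 111 for Thrb, against 12 for Esr1 and 17 for Vdr.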

How the data were processed

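RNA of femoral cortical bone from 8 control and 8 HLU mice was measured by RNAseq, and groups came from the sample labels. The authors prepared TruSeq v2 libraries, 8 per lane, aligned reads with TopHat2 to mm9 according to the submitters' processing notes, used DESeq2 for their own comparison, and deposited RPKM values for each mouse. The counting of strands and the annotation are not given in the sources used here.

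From these RPKM values, features averaging 0.5 RPKM or more were kept, and log2(RPKM + 0.1) was compared with limma 3.58.1 in R 4.3.3, letting the variance prior follow abundance and Benjamini-Hochberg adjustment over all 16973 features. Fold changes are on that log2 scale, which understates changes of low genes. A call needs a change of at least 1.2-fold and either p under 0.05 unadjusted or under 0.1 adjusted. Whole reads, within 0.01 reads, were recovered for 16973 of 16973 kept features. Limits from 3 reads cover counting error only. Single values were compared by the two-sided exact permutation test over 12870 arrangements of the mice, whose smallest p is 1.55e-04, and levels within control mice by exact sign changes. Correlations used 100000 two-sided permutations within groups, in Python 3.11.15 (scipy 1.17.1, numpy 2.4.6, pandas 2.3.3), and Benjamini-Hochberg adjustment over 36 receptor pairs, 99 receptor and marker relations, 3 ratios or 11 marker scores. Figures used matplotlib 3.10.9. Scripts were tested on simulated data.

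The receptors and gene lists were chosen with earlier results of these data known. Named genes are the receptors, pathway genes past the unadjusted call, any feature past the adjusted call, the 3 features most like each receptor, the most abundant marker of each list, and the partners in ratios. Nr1d1 was added for its overlap with Thra. The lengths implied by the RPKM values differ from GENCODE M21 exon lengths, so levels of different genes depend on them. GENCODE M21 on GRCm38 served to find overlapping genes and for those lengths, and promoters came from RefSeq. Rxra and the skeletal muscle markers were not analysed here, so the ratio of Vdr to Rxra was not computed. Features that share a symbol with another, 4078 of 36829, count among all features, but in no list, score or named gene. Of 9 planned pathway lists, 2 are not reported here. Alternatives changed the pseudocount, filter, scaling, variance trend, covariates, replicate block, weights or the mice included.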

Additional observations from a re-analysis of the deposited data

How the results depend on the processing

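Log2 fold changes and counts of features were compared under every alternative, ratios and levels only under those named below, and marker scores only under a pseudocount of 1 and the rescaling. Mice were not left out in turn for ratios, levels, marker scores and pairs, and the cause of the changes below was not tested. With a minimum mean of 2 RPKM, Esr1, Thrb and Rara were not tested and 106 features were called higher. Under median-of-ratios rescaling log2 fold changes turned positive for Pth1r (0.052), Vdr (0.015), Rara (0.039), Insr (0.062) and Lepr (0.038), and Ghr, at 0.51, passed the unadjusted call. 381 features were then called higher and 395 lower, and the marker scores differed by 0.56 for osteocytes, past an exact permutation p of 0.05, 0.029 for osteoblasts and 0.077 for osteoclasts, the last 2 with a changed sign. Quantile normalization gave 0.069, 0.048, 0.003, 0.098 and 0.076 for the same 5 receptors and 0.54 for Ghr, with 460 features higher and 364 lower. limma voom called Ghr at 0.42. With the erythroid and neutrophil scores as covariates Pth1r was at 0.34, Esr1 at -0.042 and Rara at 0.51, all with changed signs, and Thra, at 0.56, passed the unadjusted call. 1257 features were called higher and 1691 lower, 19 at the adjusted threshold, and 16 pathway genes. Alternatives chosen after the data were seen were the erythroid and osteoblast scores as covariates or removed, leaving out the smallest libraries, the rescaling for marker scores, and the other pseudocount for marker scores and level order. Those covariates gave 0.19 for Pth1r, -0.072 for Esr1 and 0.41 for Rara, 323 features higher and 347 lower, and 3 pathway genes. Without the 2 smallest libraries 108 features were higher, and Pth1r was at -0.206, Vdr at -0.213, Esr1 at 0.030 and Thrb at 0.252, all below the ranges given for leaving out single mice. With no filter 391 features were higher and 1 passed the adjusted threshold, as did 1 without a variance trend. A pseudocount of 1 turned the difference in the Thra to Thrb ratio, -0.092, to 0.049. GENCODE M21 exon lengths, also added later, turned the step from Insr to Ghr to -0.099 and that from Pth1r to Insr, -0.12, to 0.184. The step from Thra to Esr1 kept its size and its exact permutation p, but without the low p of Insr to Ghr its adjusted p no longer passed.

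Of the 36 receptor pairs, 14 passed in all mice, 0 in the 8 control mice alone and 8 in the 8 HLU mice alone (1 by Spearman rho), where fewer mice entered, and 9 with the 2 scores removed. After median-of-ratios rescaling 16 passed, 4 of them negative, and without the 2 smallest libraries 17, 5 of them negative, against 2 negative in the main setting. No pair of the 14 changed sign under these alternatives.

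Leaving out each mouse in turn gave log2 fold changes from -0.19 to 0.13 for Pth1r, -0.175 to 0.032 for Vdr, 0.054 to 0.212 for Esr1, 0.17 to 0.37 for Thra, 0.26 to 0.46 for Thrb, -0.20 to 0.15 for Rara, 0.33 to 0.54 for Ghr, -0.111 to 0.040 for Insr and -0.138 to 0.023 for Lepr. Features called ranged from 117 to 363 higher and from 471 to 1385 lower, those at the adjusted threshold from 0 to 1, and pathway genes from 2 to 10. The extremes for features were without HLU 7 and without HLU 2.

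Replicate numbers did not pair the mice: the correlations of same-numbered mice ran from -0.17 to 0.51, and 1 of 8 control mice correlated best with its own number. With the number as a block, 199 features were called higher, 840 lower and 0 at the adjusted threshold, 3 pathway genes were called, and no receptor was, Ghr standing at 0.42. Pde4b and Slc16a10 lost the call under the block, at unchanged values. Depth limited Rara and Thrb most, with as few as 28 and 53 reads.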
